A study of Mus musculus with 3 samples.

Results

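The genes described here are the integrin and laminin subunits of normal mouse muscle. They were chosen by symbol: every gene whose name starts with Itga, Itgb, Lama, Lamb or Lamc and that has a probe set assigned to no other gene. This gave 36 of 12394 genes, measured by 63 of the 20393 probe sets with a single gene symbol. The symbols took in 22 integrin subunits, 10 laminin chains and 4 genes with like names that are not subunits of either family (Itgb1bp1, Itgb1bp2, Itgb3bp and Itgbl1). Itga1, Itga10, Itga11, Itgad and Itgb8 had no such probe set and were not analysed here.

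The samples were 3 normal muscles, called muscle 1, muscle 2 and muscle 3, with 1 array each. They came from littermate controls 3 to 6 weeks old and served in the study as the normal reference for tumours of satellite cell origin. The labels do not give the alleles that the controls carried, the muscle taken, or whether the muscles came from separate animals. A note on hindlimb injection of 4-hydroxytamoxifen stands on every sample but speaks of mice with tumours, so it is not known whether the controls were injected. No tumour was analysed here, and with a single group there was no contrast to test.

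Integrins are receptors at the cell surface that pair an alpha with a beta subunit and tie the matrix outside a cell to actin inside it. Laminins join an alpha, a beta and a gamma chain and form the sheet of the basement membrane that wraps each muscle fibre. In adult muscle the main laminin holds the chains of Lama2, Lamb1 and Lamc1, and the fibre grips it through the integrin of Itga7 and Itgb1 and through dystroglycan. Loss of LAMA2 or ITGA7 causes congenital muscle disease in people.

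All levels are log2 values from the RMA method, given for each muscle or as mean ± SD (n = 3). A difference of 1 on this scale is 2-fold. A gene was called above background in a muscle when its highest probe set exceeded the 95th percentile of the signal from 75 probe sets that target genes of other organs. That level was 6.17 in muscle 1, 6.32 for muscle 2 and 6.18 for muscle 3. Probe sets bind with different strength, so no gene was ranked against another by its level. The tissue label held up: all 8 fibre markers were above background, with the actin Acta1 at 13.62 ± 0.03 and the creatine kinase Ckm at 13.61 ± 0.01.

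Of the 36 genes, 17 exceeded background in each of the 3 muscles, 17 did so in none and 2 in some. Over all genes 54.4% exceeded it in each muscle and 41% in none, against 47.2% in both cases among the 36. The share of the family that was above background was therefore near that of genes at large. By role, the counts above background in every muscle were 3 of 3 laminin-binding alpha subunits, 2 of 4 RGD-binding ones, 0 of 1 collagen-binding one and 1 of 2 for Itga4 and Itga9. They were 2 of 5 beta subunits outside leukocytes, 0 of 7 leukocyte subunits, 3 of 5 laminin alpha chains and 3 of 5 beta and gamma chains. These counts were not tested against each other.

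**Figure D1:**
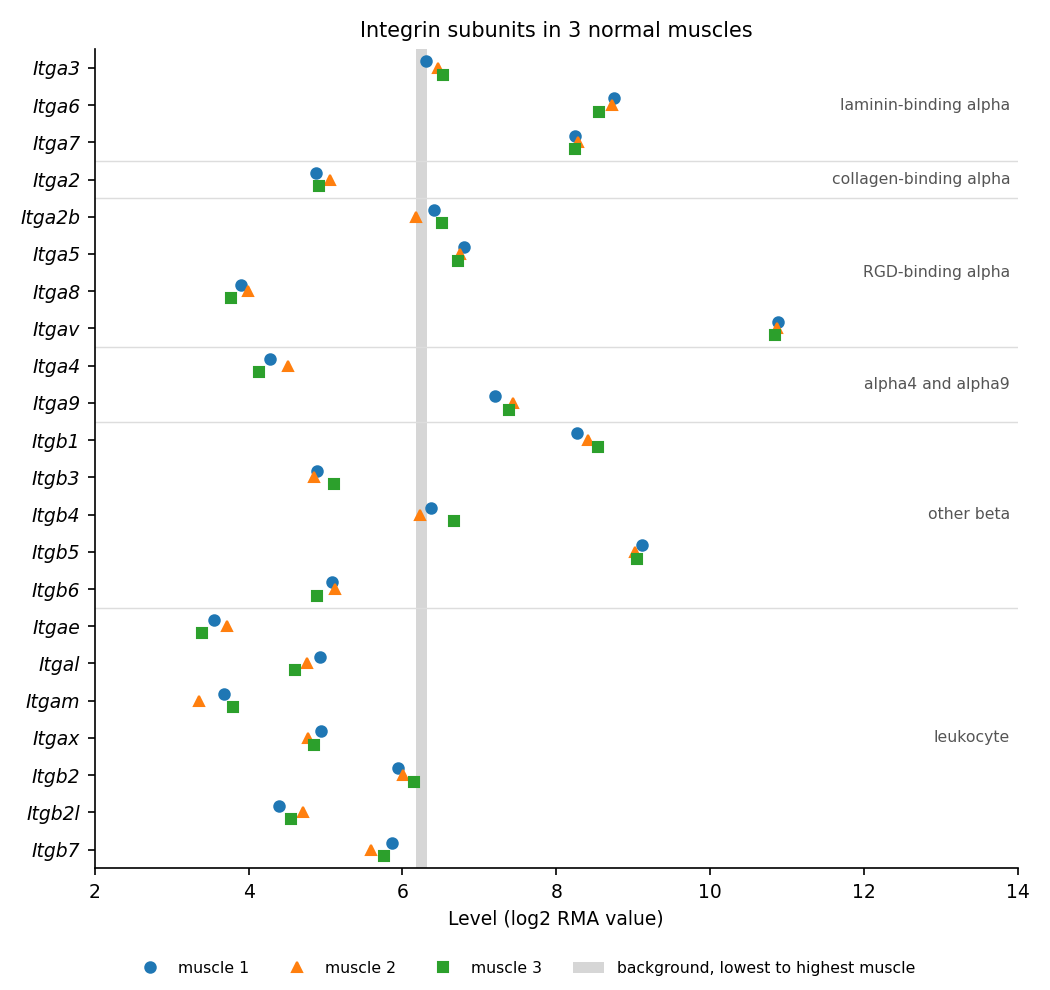
Level of each integrin subunit (horizontal axis, log2 RMA value) in muscle 1, 2 and 3, grouped by ligand or cell type, 1 point per muscle. The grey band spans the background levels of the 3 muscles, from 6.17 to 6.32. Itga6, Itga7, Itgav, Itgb1 and Itgb5 lie clear of the band, and the 7 leukocyte subunits lie at or left of it.

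The 3 measured alpha subunits that bind laminin differed in how firmly they could be called. Itga7, the alpha subunit of the main laminin-binding integrin of muscle fibres, had levels of 8.24, 8.28 and 8.24 in muscles 1, 2 and 3. Its SD of 0.02 was among the smallest of the 36 genes. Itga7 has 1 probe set, marked as matching several transcripts, so its call has no second measure. Itga6, which forms laminin receptors in endothelium and other cells, was at 8.75, 8.72 and 8.56, lowest in muscle 3. A second probe set of Itga6 gave 7.60, 7.49 and 7.26, in the same order of muscles. Itga3, a laminin receptor subunit best known from epithelia, was close to background at 6.31, 6.47 and 6.53. Its other probe sets did not settle the call: one gave 6.65, 6.28 and 6.19, the opposite order, and the last was below background in every muscle, with a mean of 4.34.

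The beta subunit that pairs with most alpha subunits, Itgb1, was at 8.27, 8.41 and 8.55, highest in muscle 3. A second probe set gave 7.87, 7.93 and 7.82, lowest in muscle 3, so the order of muscles differed between probe sets. The remaining 4 probe sets of Itgb1 were below background in every muscle, with means from 2.60 to 5.61. Transcripts of Itgb1 with different ends, among them a muscle form with its own cytoplasmic tail, cannot be told apart from these values. Itgb4, which joins Itga6 in the anchoring junctions of epithelia and in Schwann cells, was at 6.37, 6.23 and 6.66, above background in muscles 1 and 3 only. Markers of both cell types were measurable: 4 of 6 epidermal genes were above background in every muscle, with the keratins Krt5 and Krt10 at 7.05 ± 0.16 and 9.24 ± 0.07, while Krt14 and Trp63 were below it. The mean of the epidermal list lay between 6.95 and 7.12 in the 3 muscles. Of 4 Schwann cell genes 3 were above background, with Mbp at 10.04 ± 0.04 and Sox10 at 6.80 ± 0.15, and the list mean lay between 8.35 and 8.51. The part of these cells in the Itgb4 signal was not tested. In whole tissue, fewer cells of a type and less RNA per cell cannot be told apart.

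Integrins that bind the RGD motif of fibronectin and vitronectin were partly above background. Itgav, the shared alpha subunit of the vitronectin receptors, was at 10.88, 10.87 and 10.84, with the smallest SD of the 17 genes above background, 0.02. The other two probe sets of Itgav were far below background, at 4.18 and 3.26, so the high level rests on a single probe set. Its partner Itgb5 was at 9.11, 9.03 and 9.04. All 4 probe sets of Itgb5 were above background in every muscle, with means from 7.28 to 9.06. Without those marked as matching several transcripts, the level of Itgb5 was 7.28 in place of 9.06. Among other partners of Itgav, Itgb3 and Itgb6 were below background, at 4.95 ± 0.14 and 5.04 ± 0.13. Itga5, the fibronectin receptor subunit, was at 6.80, 6.75 and 6.73, a difference of 0.07 between the highest and lowest muscle, and its second probe set had a mean of 4.48. Itga8, which binds nephronectin and is typical of smooth muscle and kidney mesenchyme, was below background at 3.89 ± 0.11.

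Itga9, a receptor subunit for tenascin and the vascular adhesion molecule Vcam1, was at 7.20, 7.44 and 7.38, lowest in muscle 1. Its other probe sets had means of 5.28 and 3.23. Its relative Itga4, found mainly on leukocytes, was below background with all 3 probe sets and reached 4.31 ± 0.19 at most. Itga2, the only measured alpha subunit of the collagen-binding integrins, was below background at 4.95 ± 0.10. Itga2b, the platelet receptor for fibrinogen, was at 6.41, 6.18 and 6.52, above background in muscles 1 and 3 and below it in muscle 2. Of 5 platelet genes only Pf4, which macrophages also express, was above background, at 8.89 ± 0.04. Ppbp, Gp1bb, Gp9 and Treml1 stayed below background throughout, and the mean of the list lay between 5.50 and 5.64. Itgb3, the partner of Itga2b on platelets, was also below background.

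None of the 7 measured leukocyte integrin subunits exceeded background in any muscle. Itgb2, the beta subunit shared by the leukocyte integrins, was at 5.94, 6.01 and 6.15, against background levels of 6.17, 6.32 and 6.18. Its alpha partners Itgal, Itgam and Itgax, of lymphocytes, myeloid cells and dendritic cells, were at 4.76 ± 0.17, 3.61 ± 0.23 and 4.86 ± 0.09. Itgb7 and Itgae, which retain lymphocytes in the gut and in epithelia, were at 5.74 ± 0.14 and 3.55 ± 0.16, and the Itgb2 relative Itgb2l was at 4.55 ± 0.16. Leukocyte genes outside the family were above background in 8 of 9 cases, with Ptprc (CD45) at 8.88 ± 0.09 and the macrophage receptor Csf1r at 9.80 ± 0.09, while Cd68 was below it at 5.67 ± 0.16. The mean of the leukocyte list was 7.80, 7.79 and 7.70 in muscles 1, 2 and 3. A level below background therefore does not show that leukocytes were absent, nor that they lacked these subunits. With the background taken at the 90th percentile, an alternative added after the values were seen, Itgb2, Itga2b and Itgb4 were above it in all 3 muscles, and the count was 20 of 36 in place of 17, against 60.2% of all genes.

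**Figure D2:**
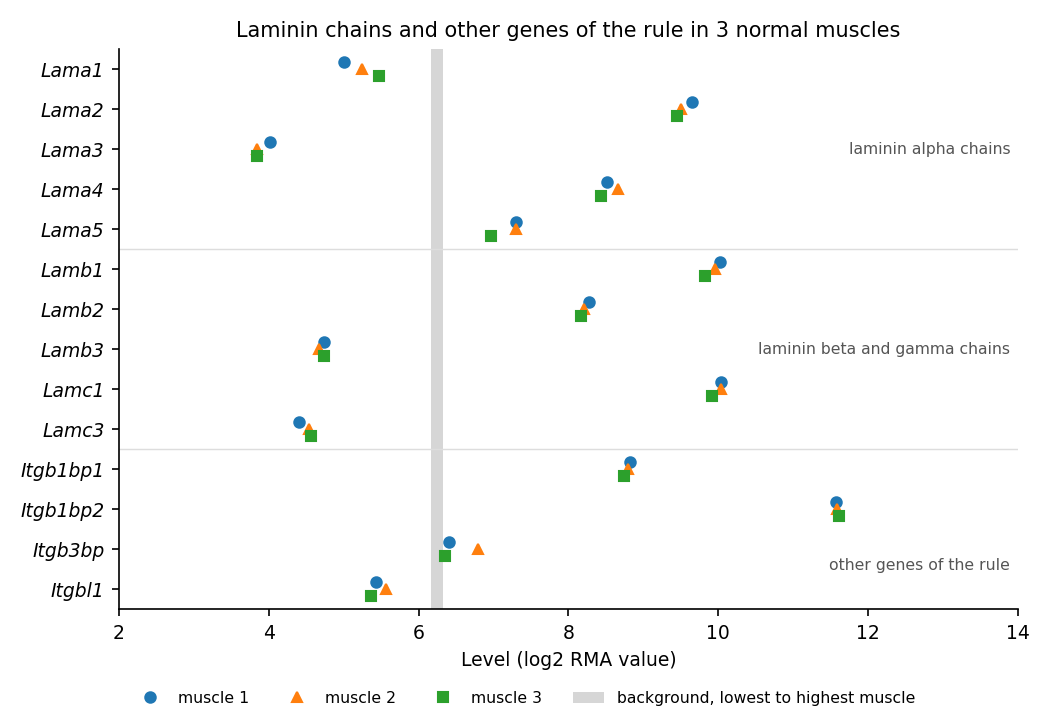
Level of each laminin chain and of the 4 other genes of the symbol rule (horizontal axis, log2 RMA value) in muscle 1, 2 and 3, 1 point per muscle. Lama2, Lamb1 and Lamc1 lie between 9.45 and 10.04, right of the grey background band, and Lama1, Lama3, Lamb3 and Lamc3 lie left of it.

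The chains of the main muscle laminin were all above background. Lama2, its alpha chain, had levels of 9.65, 9.51 and 9.45 in muscles 1, 2 and 3. Lamb1, its beta chain, was at 10.02, 9.96 and 9.82, and Lamc1, the gamma chain of nearly all laminins of muscle and vessels, was at 10.04, 10.04 and 9.92. A second probe set of Lamb1 gave 7.24, 7.37 and 7.07, also lowest in muscle 3, and the last had a mean of 4.76. The higher Lamb1 probe set is marked as matching several transcripts, and without such probe sets the gene's level was 7.23 in place of 9.93. In the main probe sets of these 3 genes muscle 3 was lowest, by 0.13, 0.17 and 0.12 below the mean of the other two. Lamb2, the beta chain concentrated at the neuromuscular junction, was at 8.27, 8.21 and 8.17. Lama4 and Lama5, alpha chains of vessel walls and of the junction, were at 8.51, 8.66 and 8.43 and at 7.29, 7.29 and 6.97. Lama5 was equal in muscles 1 and 2 and lower in muscle 3, but its second probe set gave the opposite order, 6.33, 6.49 and 6.53.

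The remaining chains were below background in every muscle. Lama1, the alpha chain of early embryonic basement membranes, was at 5.24 ± 0.23. Lama3 and Lamb3, chains of the epidermal laminin, were at 3.90 ± 0.10 and 4.72 ± 0.04. Lamc3, a gamma chain known from brain and retina, was at 4.50 ± 0.09 with its higher probe set. Lama1, Lama3 and Lamb3 have 1 probe set each, so their calls have no second measure. The same holds for Lama2 and Lamb2, which were above background.

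Of the 4 like-named genes that are not subunits of either family, 3 were above background. Itgb1bp2 encodes melusin, a chaperone of striated muscle that binds the tail of the Itgb1 protein, and was at 11.57, 11.58 and 11.62. Itgb1bp1, which competes with talin for that tail, was at 8.82, 8.80 and 8.75. Itgb3bp, a kinetochore protein also known as CENP-R, had the widest range of the 17 genes, at 6.41, 6.79 and 6.35. The spread of 0.43 between highest and lowest is 1.35-fold, and muscle 2 was the muscle apart. Both other probe sets of Itgb3bp were below background, at 3.82 and 3.19. Itgbl1, a secreted protein with integrin-like repeats, was at 5.45 ± 0.10, below background.

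Most genes that work with these receptors were above background. Of 21 measured linkers between integrins and actin, 18 were above background in every muscle, with talin (Tln1) at 8.37 ± 0.12, vinculin (Vcl) at 10.75 ± 0.03 and kindlin-2 (Fermt2) at 10.85 ± 0.06. Other basement membrane genes were above it in 11 of 15 cases, among them the laminin-binding nidogens Nid1 and Nid2 at 10.80 ± 0.04 and 6.97 ± 0.33 and perlecan (Hspg2) at 9.51 ± 0.02. Nid2 was lowest in muscle 3, at 6.59 against 7.12 and 7.20. Of the 15 genes, 4 of them below background, 8 were lowest in muscle 3, 4 in muscle 1 and 3 in muscle 2. Over all genes above background in every muscle, 48.4% were lowest in muscle 3. Of 12 genes of other laminin receptors and their glycosylation, 10 were above background, with dystroglycan (Dag1) at 10.61 ± 0.05, dystrophin (Dmd) at 9.03 ± 0.06 and utrophin (Utrn) at 8.68 ± 0.01. Integrin ligands outside the basement membrane were above it in 9 of 17 cases. Among them fibronectin (Fn1) was at 10.34 ± 0.08, vitronectin (Vtn) at 8.00 ± 0.10 and tenascin C (Tnc) at 7.49 ± 0.11, while the fibrinogen chains Fga, Fgb and Fgg were below background. The shares above background stand beside 54.4% of all genes and were not tested against it.

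Among cell types that carry integrins and make laminins, the endothelial list had 5 of 6 genes above background, with Pecam1 at 6.49 ± 0.10 and Cdh5 at 8.49 ± 0.17. The fibroblast list had 6 of 6, with Col1a1 and Col1a2 at 11.36 ± 0.07 and 12.88 ± 0.04, and the list of smooth muscle and pericytes 5 of 6, with Acta2 and Myh11 at 11.24 ± 0.02 and 7.20 ± 0.09. Of 4 tendon genes 3 were above background, with Tnmd and Thbs4 at 7.21 ± 0.04 and 9.04 ± 0.04. The endothelial mean was 7.19, 7.10 and 6.96 and the fibroblast mean 11.53, 11.52 and 11.46 in muscles 1, 2 and 3, lowest in muscle 3 in both. In each list 3 of 6 genes were lowest in muscle 3, beside 48.4% of all genes above background in every muscle. Pecam1, Col1a1 and Col1a2 were lowest in muscle 1. The Schwann cell mean was highest in muscle 3, at 8.35, 8.46 and 8.51. The mean for smooth muscle and pericytes was 8.70, 8.70 and 8.68, and the tendon mean 8.02, 8.00 and 8.02. The part of these cells in the laminin levels was not tested.

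No member was called more variable between muscles than genes of like level. By limma's variance test over 7314 genes, 0 of the 19 members above background in at least 1 muscle had an adjusted p under 0.05, and 0 had an unadjusted p under 0.05. Over all genes tested, 0.082% passed the first limit and 4.96% the second. The smallest p was that of Lamb1, 0.101 before and 0.962 after Benjamini-Hochberg adjustment. With 3 muscles, differences of the size seen here could not be told from the spread of other genes. None of the 19 had a range of 1 or more, against 0.273% of all genes tested. The widest among them was the 0.43 of Itgb3bp, followed by the 0.43 of Itgb4 and the 0.34 of Itga2b.

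**Figure D3:**
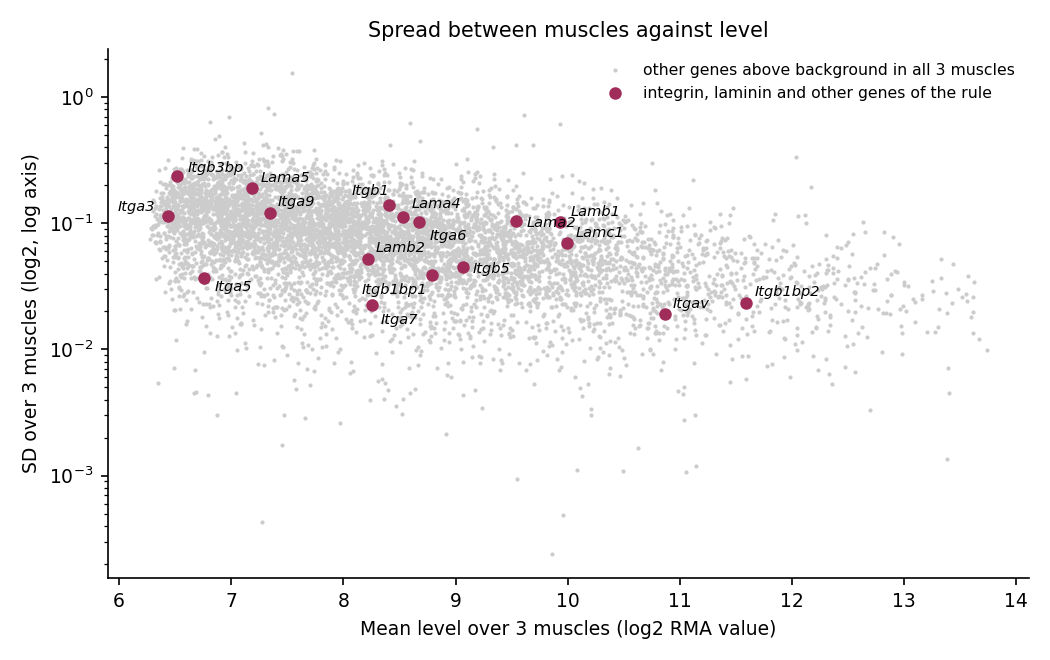
SD over the 3 muscles (vertical log axis, log2 units) against mean level (horizontal axis, log2 RMA value) for each gene above background in all 3 muscles. The 17 integrin, laminin and like-named genes (named points) lie within the cloud of the other genes (grey).

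The median SD of the 17 genes above background in all 3 muscles was 0.102, and that of all 6738 such genes was 0.0747. The gap depended on the scale and on single muscles. After quantile normalization of the 3 columns the medians were 0.0726 and 0.0706. Without muscle 3 they were 0.0393 and 0.0521, and without muscle 1 they were 0.0409 and 0.0633, with the members below all genes in both cases. Without muscle 2 they were 0.0737 and 0.0619, and after median centring 0.100 and 0.0743, with the members above. Spread fell with level for genes at large, from a median SD of 0.113 in the 1348 genes with the lowest means to 0.0398 in the 1348 with the highest. The 4 members among the latter, Itgav, Itgb1bp2, Lamb1 and Lamc1, had a median SD of 0.0468, and the 3 members among the former 0.115. In each of 5 bins by mean level, with 2 to 4 members apiece, the members' median SD was above that of all genes.

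Muscle 3 was the lowest muscle for most members. Of the 17 genes, 12 were lowest in muscle 3, 4 in muscle 1 and 1 in muscle 2. The margins ranged widely: Itga7 was at 8.245 in muscle 1 and 8.242 in muscle 3, while Lama5 had a departure of -0.33 in muscle 3. Over all genes above background in all 3 muscles, 48.4% were lowest in muscle 3, 22.8% in muscle 1 and 28.7% in muscle 2. Among the members 70.6% were lowest in muscle 3. All 6 laminin chains above background were lowest in muscle 3, with a median departure of -0.14 from the mean of the other muscles, against -0.04 for all genes. These counts use the main probe set of each gene. Counts and departures by muscle, here and below, were not among the planned results and were not tested. With 1 array per muscle, the 6 chains are not separate samples of muscle 3. Of further laminin probe sets above background in every muscle, that of Lamb1 was lowest in muscle 3, at 7.24, 7.37 and 7.07. That of Lama5, at 6.33, 6.49 and 6.53, was highest in muscle 3. After quantile normalization 10 of the 17 genes and 5 of the 6 laminin chains were lowest in muscle 3, with 36.2% of all genes, and the laminin median was -0.10. After median centring the counts were 11 and 6, with a laminin median of -0.14. The exception under quantile normalization was Lamb2. The values of muscle 3 also had the smallest SD over all probe sets, 2.32 against 2.35 in each of the others. Itgb1, Itga3 and Itgb1bp2 were highest in muscle 3, and Itgb1 stood 0.21 above the mean of the other muscles.

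**Figure D4:**
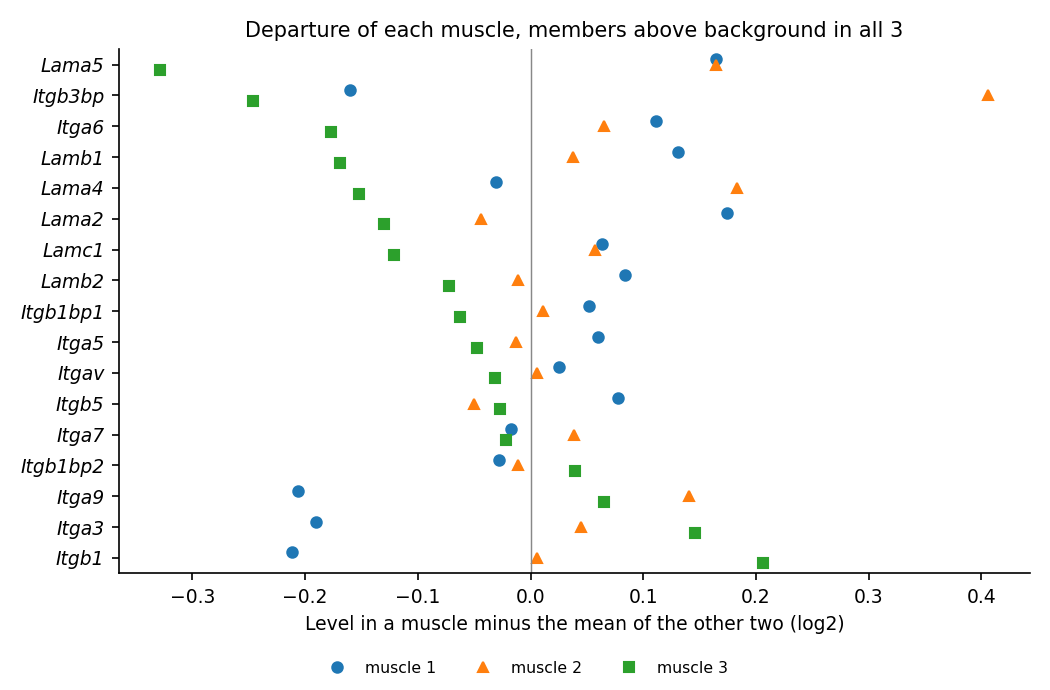
Level in each muscle minus the mean of the other two (horizontal axis, log2) for the 17 genes above background in all 3 muscles, 1 point per muscle, ordered by muscle 3. Points are the main probe set of each gene. The 6 laminin chains have their muscle 3 point left of 0, from -0.33 for Lama5 to -0.07 for Lamb2.

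Dim probe sets, of the members and of genes at large, were most often highest in muscle 3. Of 35 member probe sets below background in every muscle, 17 were highest in muscle 3, 10 in muscle 2 and 8 in muscle 1. Over all 9787 such probe sets, 40.7% were highest in muscle 3, 30.9% in muscle 2 and 28.4% in muscle 1. Of 14 dim probe sets of the 17 genes, 8 were highest in muscle 3, 4 in muscle 1 and 2 in muscle 2. Those highest in muscle 3 included probe sets of Lama4, at 3.98, 3.85 and 4.50, and of Lamb1, at 4.55, 4.62 and 5.13. A probe set of Itgb1 was highest there, at 3.23, 2.97 and 3.89, and another lowest there, at 5.76, 5.62 and 5.43. The main probe sets of Lama4 and Lamb1 were lowest in muscle 3, and that of Itgb1 was highest.

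The widest spread of any member probe set was that of a second Lamc1 probe set. It was at 4.05 in muscle 1 and 4.51 in muscle 2, below background, and at 6.39 in muscle 3, above it. The main Lamc1 probe set differed by only 0.12 between the highest and lowest muscle and was lowest in muscle 3, so the probe sets of this gene departed in opposite directions. This was the only one of 28 member probe sets above background in at least 1 muscle with a range of 1 or more, against 0.613% of all such probe sets. It passed that filter through muscle 3 alone, so its range there is a description, measured from values below background. In limma's variance test over the 10606 probe sets above background in at least 1 muscle, its p was 0.044 and its adjusted p 0.985. Over all 20393 probe sets, with no filter on low values, that test gave p 0.00014 and adjusted p 0.106. It called 0.0834% of these probe sets. Neither fit was planned before the values were seen.

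**Figure D5:**
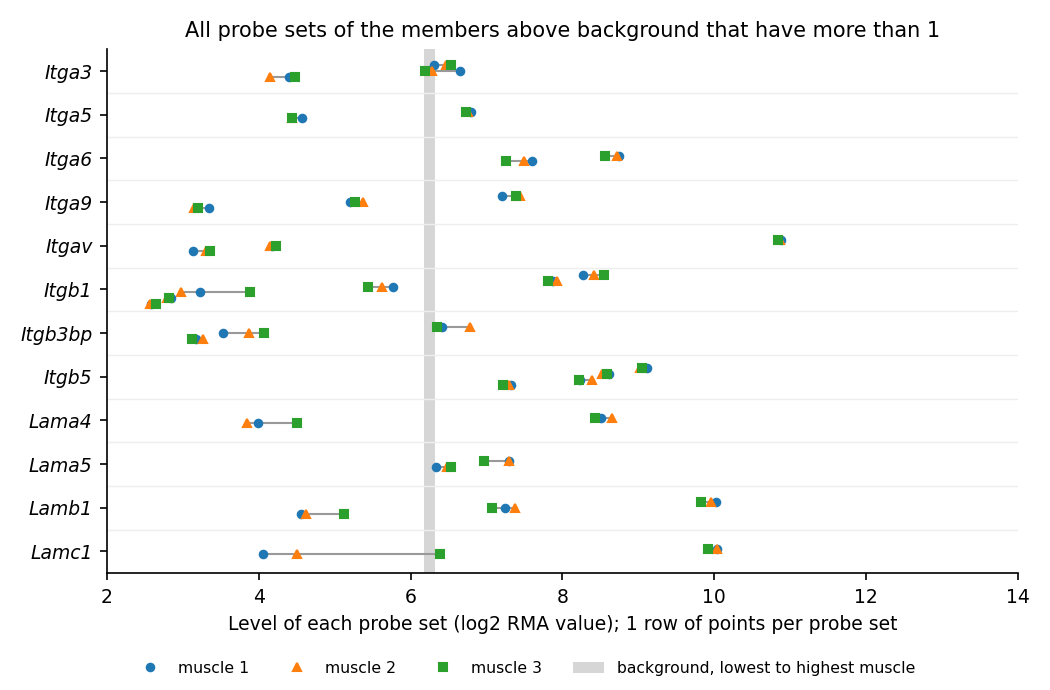
Level of every probe set (horizontal axis, log2 RMA value) of the 12 members that were above background in all 3 muscles and have more than 1 probe set, with a grey line joining the 3 muscles. The lower Lamc1 probe set spans from 4.05 to 6.39, and 8 of the 12 genes have a probe set left of the background band in every muscle.

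Probe sets of a gene often gave different calls. Of the 12 members above background that have more than 1 probe set, 8 had another that was below background in every muscle. The same held for 57.1% of all such genes, so nothing in it sets the integrins and laminins apart. Those 8 were Itga3, Itga5, Itga9, Itgav, Itgb1, Itgb3bp, Lama4 and Lamb1. For Itga6, Itgb5 and Lama5 all probe sets were above background, and for Lamc1 the second was above it in muscle 3 only. With the mean over probe sets as the level of a gene, 10 of 36 genes were above background in every muscle, against 46.4% of all genes, and Itga3, Itga5, Itga9, Itgav, Itgb1, Itgb3bp and Lama4 were no longer among them.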

How the data were processed

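Per the labels' protocols, Trizol was used to extract total RNA from the 3 normal muscles, and amplification with a biotin label started from 500 ng. The values deposited by the authors are on a log2 scale. RMA is named in the submitters' processing notes. It subtracts background, quantile-normalizes arrays and summarises the probes of each probe set. Its version, the arrays normalized together and the genome build were not stated, so no coordinates are given. Precision is limited by the number of arrays.

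GEO's platform annotation gave the symbols. All 63 member probe sets matched a RefSeq gene table (GRCm38.p6) by gene number, with 0 symbols changed. Where a gene had several probe sets, that of highest mean was used. For background, 75 probe sets of 52 genes typical of other organs were taken at their 95th percentile, and 2 of these genes were themselves above it in all 3 muscles. The variance of each gene above background in at least 1 muscle (2 degrees of freedom) was compared with limma's prior variance (limma 3.58.1, R 4.3.3), fitted robustly with a trend on level. The F test was one-sided, with p-values adjusted by Benjamini-Hochberg at 0.05. It was also run on data simulated from its own fitted variances, in which moved genes shifted by more than the range of any member tested. That run does not bear on differences of the size seen here. The spread these p-values measure is that between these samples, and may be technical.

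Every gene of the symbol rule is named. The partner and marker lists are named by their first members above background (3 and 2), others being named after their values were seen. The members and lists were chosen with earlier results of these data known. Alternatives were other scalings, background levels, probe set rules and limma settings, and leaving out each muscle. Python 3.11.15, numpy 2.4.6, pandas 2.3.3 and matplotlib 3.10.9 were used.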

Additional observations from a re-analysis of the deposited data

How the results depend on the processing

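The count of 17 members above background in all 3 muscles was 14 at the 99th percentile, or 38.9% against 46.8% of all genes. With probe sets averaged it was 10, or 27.8% against 46.4% of all genes. Without muscle 1, 2 and 3 in turn it was 17, 19 and 16, beside 54.6%, 55.8% and 54.9% of all genes. Itga3 was lost without muscle 3, and Itga2b and Itgb4 were gained without muscle 2. The count of 17 above background in no muscle became 23 with probe sets averaged. Dropping probe sets that match several transcripts left 31 genes, with 13 above background, or 41.9% against 49.0% of all genes. Itga7 and Itgb1bp1 were then without a value. Members called by limma's variance test stayed at 0 under every alternative run, with at most 1 gene at an unadjusted p under 0.05, or 2 probe sets (of Lamc1 and Itgb1) in the fit over all probe sets without a filter. Members with a range of 1 or more stayed at 0, also at a 1.5-fold limit, except 1, Lamc1, with probe sets averaged. The median SD of 0.102 became 0.0726 after quantile normalization, 0.0455 with probe sets averaged and 0.0862 at the 99th percentile, and lay between 0.0393 and 0.0737 with each muscle left out, when only a pair of values enters each SD. The order of the members' and all genes' median SD turned without muscle 1, without muscle 3 and with probe sets averaged (0.0455 against 0.0728), and Lamb2 was not lowest in muscle 3 after quantile normalization. Of 17 mean levels, 12 moved by more than their SD with probe sets averaged, 5 without probe sets matching several transcripts and 0 under the other scalings or without a muscle. The 5 were those of Itga5, Itgb1, Itgb3bp, Itgb5 and Lamb1. A second list of background genes was not run. No paired analysis was possible because there is a single group.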
